A study of Mus musculus with 14 samples.

Results

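The p53 target genes are genes that the transcription factor p53 is known to switch on, together with Trp53, the gene of p53 itself. The members were the 10 genes Mdm2, Ccng1, Zmat3, Trp53inp1, Btg2, Phlda3, Bax, Bbc3, Gdf15 and Trp53, and a probe set was taken for a member where the platform annotation gave it that gene's symbol and no other. Of the 10 genes, 7 were named by such a probe set, out of 18193 genes in all, and these 7 carried 13 probe sets. No probe set could be named for Bax, Gdf15 or Trp53 with the annotation used, and they were not analysed here. The main probe set of a gene was the one with the highest mean over the 14 arrays, and the others served as a check.

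The study followed 3T3-L1 cells, a mouse preadipocyte line that turns into fat cells in culture, carrying either a SETD5 virus or a control empty virus. The SETD5 virus was a retrovirus that expressed V5-tagged mouse SETD5 from a weak LTR promoter after stable transduction, and 1 array per arm was made at 0, 12, 24, 36, 48, 96 and 192 h, which gave 7 arrays with the SETD5 virus and 7 with the empty virus. Both arms received the same inducers at 0 h, insulin, dexamethasone and isobutylmethylxanthine, for 48 h and insulin alone afterwards. Each arm was a stably transduced population, the labels name no repeat culture, and the arrays do not separate the effect of the virus from that of the particular transduced population. The comparisons asked how the p53 target genes moved during differentiation and whether they differed with SETD5.

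p53 is held at a low level in unstressed cells, mainly because MDM2, itself made from a p53 target gene, marks it for degradation. When DNA damage or another stress stabilises p53, it binds its sites in DNA and raises genes that stop the cell cycle, repair DNA, adjust metabolism or start apoptosis. In preadipocytes p53 has been described as a restraint on proliferation and fat cell formation, and 3T3-L1 cells pass through a round of division early after induction.

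Of the 7 measured members, 6 passed the filter of an intensity of at least 50 on 3 or more of 14 arrays and were tested among 8682 genes. Bbc3 reached 50 on 2 arrays and was not tested. Over the 14 arrays, between 88.4% and 93.8% of the tested genes reached 50, the median tested gene had an intensity between 188 and 208, and the 3′ to 5′ intensity ratio was between 0.82 and 0.909 for Gapdh and between 1.57 and 2.51 for actin. The actin ratio, a sign of RNA quality, was highest at 36 h in both arms, at 2.26 with the SETD5 virus and 2.51 with the empty virus, and was lower with the SETD5 virus at 6 of 7 hours. The 6 preadipocyte markers and the 5 fat cell markers that had a named probe set were all tested, and none of the macrophage, endothelial, epithelial or muscle markers passed the filter. Setd5 itself had 3 named probe sets. The one with the highest signal read 239 to 350 with the SETD5 virus and 249 to 378 with the empty virus and was higher with the SETD5 virus at 2 of 7 hours, so these probe sets showed no higher level of the transduced gene. The paper, by contrast, reported raised Setd5 mRNA by qPCR in its SETD5-transduced lines and showed SETD5 expression by immunoblot. No source used here says whether these probe sets lie in the transduced coding sequence, and the virus labels were taken as given.

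The promoters are shown first because p53 acts through a known DNA motif, the p53 half-site consensus of 10 bases, which reads the same on both strands. RefSeq promoters of build GRCm38.p6, each of 300 bases from 250 before the transcription start to 50 after it, were in the table for 8 of the 10 members, with 11 promoters between them. An exact half-site stood in at least 1 promoter of 4 of these 8 members, Mdm2, Ccng1, Bax and Trp53, and in 8.36% of all 32851 promoters. The promoters of the tested members are printed 5′ to 3′ on the strand of the gene, with the half-site in capitals, for Mdm2 (chr10:117710709-117711008, minus strand), Ccng1 (chr11:40755237-40755536, minus strand), Btg2 (chr1:134079106-134079405, minus strand) and Phlda3 (chr1:135765835-135766134, plus strand).
Mdm2: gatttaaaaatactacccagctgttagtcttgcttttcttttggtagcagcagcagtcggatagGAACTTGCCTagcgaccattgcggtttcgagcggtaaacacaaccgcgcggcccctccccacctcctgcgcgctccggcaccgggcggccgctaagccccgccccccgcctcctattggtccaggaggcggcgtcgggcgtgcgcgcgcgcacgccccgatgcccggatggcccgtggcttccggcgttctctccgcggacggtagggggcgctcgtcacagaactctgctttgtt
Ccng1: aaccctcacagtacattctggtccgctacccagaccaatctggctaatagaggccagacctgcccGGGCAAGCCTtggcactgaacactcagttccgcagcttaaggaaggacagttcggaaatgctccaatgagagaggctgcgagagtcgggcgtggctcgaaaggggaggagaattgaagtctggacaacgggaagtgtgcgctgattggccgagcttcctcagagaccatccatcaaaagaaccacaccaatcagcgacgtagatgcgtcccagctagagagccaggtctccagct
Btg2: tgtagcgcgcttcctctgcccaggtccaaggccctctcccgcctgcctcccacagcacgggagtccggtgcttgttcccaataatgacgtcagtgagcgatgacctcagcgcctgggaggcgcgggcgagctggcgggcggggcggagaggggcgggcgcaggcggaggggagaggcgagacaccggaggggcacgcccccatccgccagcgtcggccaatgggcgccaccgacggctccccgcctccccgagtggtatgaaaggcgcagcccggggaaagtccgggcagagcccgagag
Phlda3: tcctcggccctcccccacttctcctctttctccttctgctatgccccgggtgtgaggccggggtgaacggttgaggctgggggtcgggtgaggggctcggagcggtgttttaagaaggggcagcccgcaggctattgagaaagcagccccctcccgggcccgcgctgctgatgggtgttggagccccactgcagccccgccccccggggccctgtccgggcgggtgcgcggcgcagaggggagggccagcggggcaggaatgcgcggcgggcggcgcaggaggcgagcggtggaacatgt
The half-site of Mdm2 covered the bases 186 to 177 before the start, and that of Ccng1 the bases 185 to 176 before it. In Ccng1, and also in Bax, a further half-site lay within 13 bases, with 1 letter off the consensus over the pair, and 1.09% of all promoters held a pair with at most 1 letter off. The windows of Btg2, Phlda3, Bbc3 and Gdf15 held no exact half-site, which says only that these letters are not in these windows. A match is a description of the sequence, and binding was not measured on these arrays.

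Mdm2, the ubiquitin ligase that limits p53, varied least over the time course among the measured members. Its intensity with the SETD5 virus was 3498, 3303, 3347, 4102, 4046, 3659 and 3744 at 0, 12, 24, 36, 48, 96 and 192 h. With the empty virus it was 3193, 3550, 3303, 3898, 4022, 3754 and 3586 at the same hours. The arms overlapped throughout, and the highest array was 1.24 times the lowest with the SETD5 virus and 1.26 times with the empty virus. All log2 values below were computed after adding 16 to the intensity, and a change was called where limma's adjusted p over the 8682 genes was under 0.05. Mdm2 was called in none of the 10 comparisons. Its highest hourly difference against 0 h was 0.27 ± 0.10 (SE) at 48 h, with an adjusted p of 0.0663.

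Ccng1 encodes cyclin G1, which works with a phosphatase in the feedback between p53 and MDM2. With the SETD5 virus it had intensities of 2354, 1976, 1672, 1648, 1819, 1848 and 1241 from 0 to 192 h. With the empty virus it had 2070, 1864, 1624, 1550, 1486, 1477 and 1283. The 0 h array was the highest and the 192 h array the lowest in both arms. Ccng1 fell at 24 h (log2 difference -0.42 ± 0.12, adjusted p = 0.0188), 36 h (-0.46, adjusted p = 0.0162), 48 h (-0.42, adjusted p = 0.0213), 96 h (-0.41, adjusted p = 0.0410) and 192 h (-0.80, adjusted p = 0.00186). The 192 h call held when any 1 of the 14 arrays was left out. Leaving out either 0 h array or either array of the hour itself ended the calls at 24 h (adjusted p between 0.0556 and 0.131) and 36 h (between 0.0597 and 0.106). The 48 h call was lost without either 0 h array or the empty virus 48 h array (adjusted p between 0.0936 and 0.157), and the 96 h call without any 1 of the 0, 12, 24, 36 or 96 h arrays of either arm (highest adjusted p 0.288). Scaling the arrays to a common median also ended the calls at 24 h (adjusted p = 0.0572), 48 h (0.0545) and 96 h (0.0780).

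Zmat3 encodes a zinc finger protein that binds RNA and is a well known p53 target in mouse cells. With the SETD5 virus its intensity was 425, 452, 294, 370, 324, 295 and 240 from 0 to 192 h. With the empty virus it was 393, 498, 209, 215, 254, 219 and 103. Both arms stood near the same level at 0 and 12 h, and from 24 h on every SETD5 virus array was above the empty virus array of its hour. Across the arms Zmat3 fell at 24 h (-0.69 ± 0.24, adjusted p = 0.0453) and at 192 h (-1.28 ± 0.24, adjusted p = 0.00633). The 24 h call was lost without any 1 of the 0, 24, 36, 48 or 96 h arrays of either arm (highest adjusted p 0.279) and also with a common median, an offset of 4, no filter or no block (0.0545 to 0.150), and the 192 h call was lost without the empty virus 0 h array (adjusted p = 0.0833). Without either 192 h array, Zmat3 was also called at 36, 48 and 96 h.

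Trp53inp1, which encodes a p53-induced nuclear protein with roles in autophagy and in the p53 response, had a peak in the middle of the time course. With the SETD5 virus its intensity was 1449, 1360, 1812, 2476, 2379, 1785 and 959. With the empty virus it was 1411, 1214, 1432, 2443, 2036, 2027 and 622. The highest array was that of 36 h and the lowest that of 192 h in both arms. The actin 3′ to 5′ ratio was also highest at 36 h in both arms, as was Mdm2 in the SETD5 virus arm, and its part in these highs was not tested. Trp53inp1 rose at 36 h (0.78 ± 0.17, adjusted p = 0.00717) and 48 h (0.62 ± 0.17, adjusted p = 0.0184) and fell at 192 h (-0.87 ± 0.17, adjusted p = 0.00691). The 36 h call was lost without the SETD5 virus 0 h array (adjusted p = 0.0570) or the empty virus 36 h array (0.0578). The 48 h call was lost without any 1 of the 0 h or 48 h arrays (0.0660 to 0.105) and with quantile normalization (0.0801), and the 192 h call without the empty virus 0 h array (0.0827). The 192 h fall was not called on the other probe set of the gene.

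Btg2, an antiproliferative gene that is also an immediate early gene and whose protein acts with the mRNA deadenylation machinery, had the largest change since 0 h among the members. Its intensity with the SETD5 virus was 246 at 0 h and then 49.2, 48.0, 58.5, 85.7, 82.1 and 83.8. With the empty virus it was 249 at 0 h and then 46.4, 61.0, 54.6, 73.1, 92.4 and 148. No later array reached the level of either 0 h array. Btg2 fell at all 6 later hours, by 2.05 ± 0.19 on the log2 scale at 12 h (adjusted p = 3.42e-05), and the differences at 24, 36, 48, 96 and 192 h were -1.91, -1.86, -1.47, -1.35 and -1.04 (highest adjusted p 0.00564). These calls held under every alternative run, including each array left out in turn (highest adjusted p 0.0476).

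Phlda3, whose protein holds back the kinase AKT at the membrane, was highest at 12 h in both arms. With the SETD5 virus its intensity was 347, 547, 321, 232, 245, 253 and 248. With the empty virus it was 257, 474, 325, 253, 266, 173 and 286. Phlda3 rose at 12 h (0.74 ± 0.18, adjusted p = 0.00708) and was called at no other hour. The 12 h call was lost without the SETD5 virus 12 h array (adjusted p = 0.0570) or the empty virus 0 h array (0.0818). The same hour thus held the peak of Phlda3 and, in the empty virus arm, the trough of Btg2.

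Bbc3, which encodes the apoptosis protein PUMA, was close to the lower end of the array's range. Its intensity was 49.0, 21.1, 19.9, 30.2, 18.9, 25.4 and 30.3 with the SETD5 virus, and 51.8, 14.8, 11, 23.2, 16, 46.6 and 84.5 with the empty virus. It reached 50 at 0 and 192 h of the empty virus arm and on no SETD5 virus array, and no fold change is given for it.

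**Figure D1:**
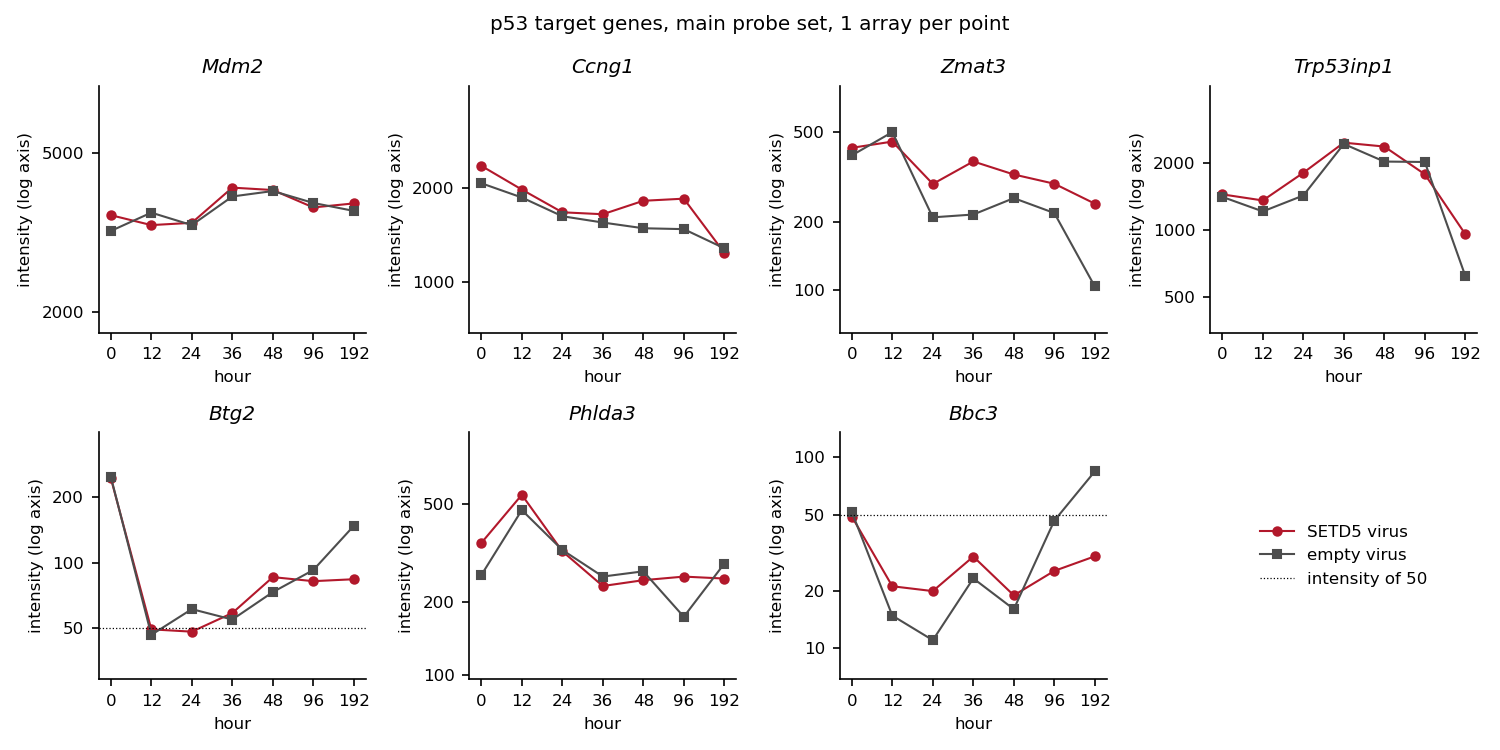
Intensity of the main probe set of the 7 measured p53 target genes (log axis) against hour of differentiation, with SETD5 virus arrays in red and empty virus arrays in grey, 1 array per point and hours drawn at equal steps. The dotted line, in the panels it crosses, marks an intensity of 50; Btg2 drops after 0 h, Trp53inp1 peaks at 36 h, and Zmat3 ends at 240 with the SETD5 virus and 103 with the empty virus.

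Counted over the 6 tested members, calls against 0 h were spread as follows, with the share of all tested genes beside them. At 12 h, 1 member was higher against 19.9% of all tested genes, and 1 was lower against 27.9%. At 24 h none was higher (16.4%) and 3 were lower (21.9%), and at 36 h 1 was higher (12.4%) and 2 were lower (17%). At 48 h 1 was higher (14.4%) and 2 were lower (19.9%), at 96 h none was higher (6.12%) and 2 were lower (9.53%), and at 192 h none was higher (7.3%) and 4 were lower (12.3%). The median log2 difference of the 6 members was -0.06 at 12 h and -0.21, -0.37, -0.32, -0.45 and -0.84 at the later hours, beside medians over all tested genes between -0.06 and -0.03. Each of these 6 comparisons used the same pair of 0 h arrays, and the p-values rest on the spread between arms and hours because no hour had a repeat culture.

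**Figure D2:**
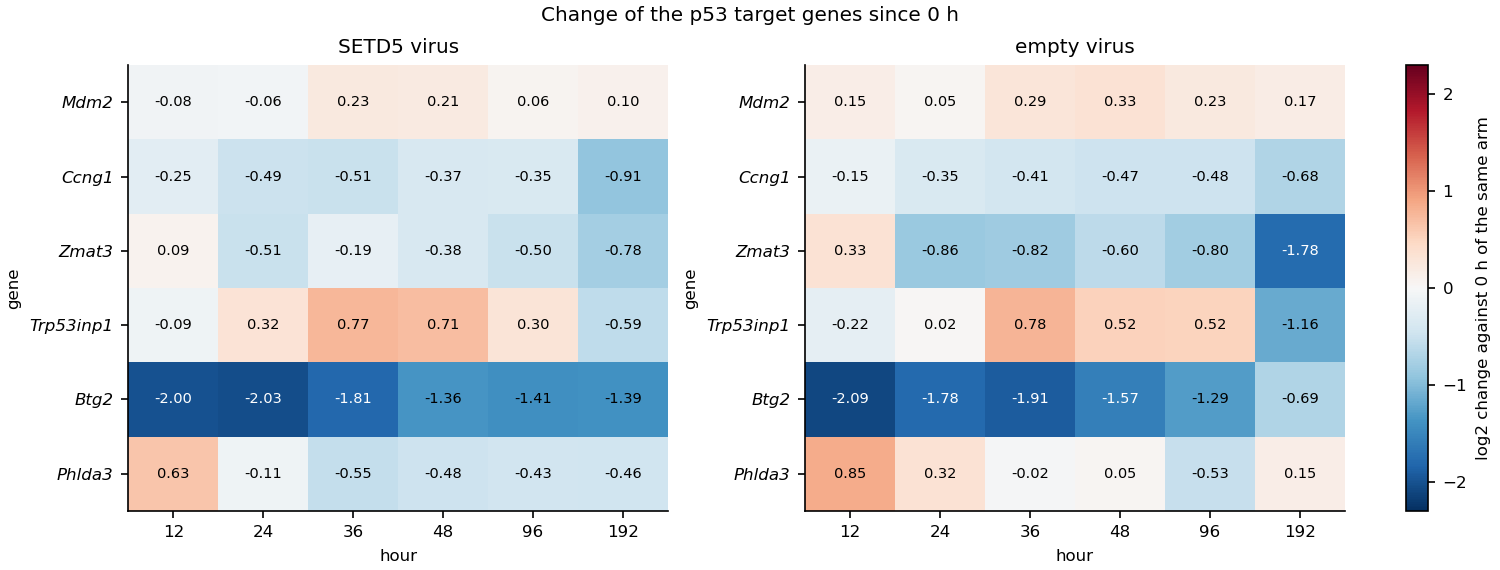
Log2 change of intensity plus 16 against the 0 h array of the same arm for the 6 tested members (rows) at each later hour (columns), with the SETD5 virus on the left and the empty virus on the right; red is higher and blue lower than 0 h. Btg2 is blue at every hour in both arms, and Zmat3 at 192 h stands at -0.78 with the SETD5 virus and -1.78 with the empty virus.

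The members did not move as 1 block. Over the 14 arrays, 7 of the 15 pairs of tested members had a positive Pearson r, with a median r of -0.07. Ccng1 and Zmat3 ran most alike (r = 0.79), and Mdm2 and Phlda3 were most opposed (r = -0.54). The genes whose pattern over the 14 arrays was most like that of Mdm2 were Tmem230 (r = 0.91), Slc23a2 (0.90), Fndc3b (0.89), Riok3 (0.88) and Laptm4a (0.87). The 14 arrays share hours and arms, so these values describe the patterns and carry no test.

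Between the arms, 1 of the 6 tested members passed the threshold. Over 36, 48, 96 and 192 h, Zmat3 was higher with the SETD5 virus by 0.64 ± 0.14 on the log2 scale, a 1.56-fold difference on that scale (adjusted p = 0.0210), with hourly differences of 0.74, 0.33, 0.41 and 1.10. Of all tested genes, 7.43% were called higher and 4.56% lower in this late window, and no member was called lower. The difference was 0.72 without the 96 h pair of arrays, with an adjusted p of 0.0519, and in a fit without the hour as a block the adjusted p was 0.630.

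The other tested members had late differences of 0.16 ± 0.09 (Ccng1), 0.17 ± 0.12 (Trp53inp1), 0.03 ± 0.08 (Mdm2), 0.02 ± 0.12 (Phlda3) and -0.15 ± 0.14 (Btg2), with adjusted p between 0.229 and 0.927. The widest single gap among them was that of Btg2 at 192 h, where the SETD5 virus array read 83.8 and the empty virus array 148. Without the 192 h pair the late difference of Btg2 was 0.04.

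Over 0, 12 and 24 h no member was called, and none had an unadjusted p under 0.05. Of all tested genes, 0.023% were called higher and 0% lower in this early window. Zmat3 had an early difference of 0.14 ± 0.16 (adjusted p = 0.989), with -0.13 at 12 h and 0.46 at 24 h. Its late difference exceeded its early one by 0.50 ± 0.21, which was not called (adjusted p = 0.381, unadjusted p = 0.0413), and 0.0115% of all tested genes were called in each direction in that comparison. No other member had an unadjusted p under 0.05 there.

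Over all 7 hours no member was called higher (2.73% of all tested genes) or lower (0.887%). Zmat3 alone had an unadjusted p under 0.05, with a difference of 0.43 ± 0.13 (adjusted p = 0.0924) and higher values at 6 of 7 hours.

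**Figure D3:**
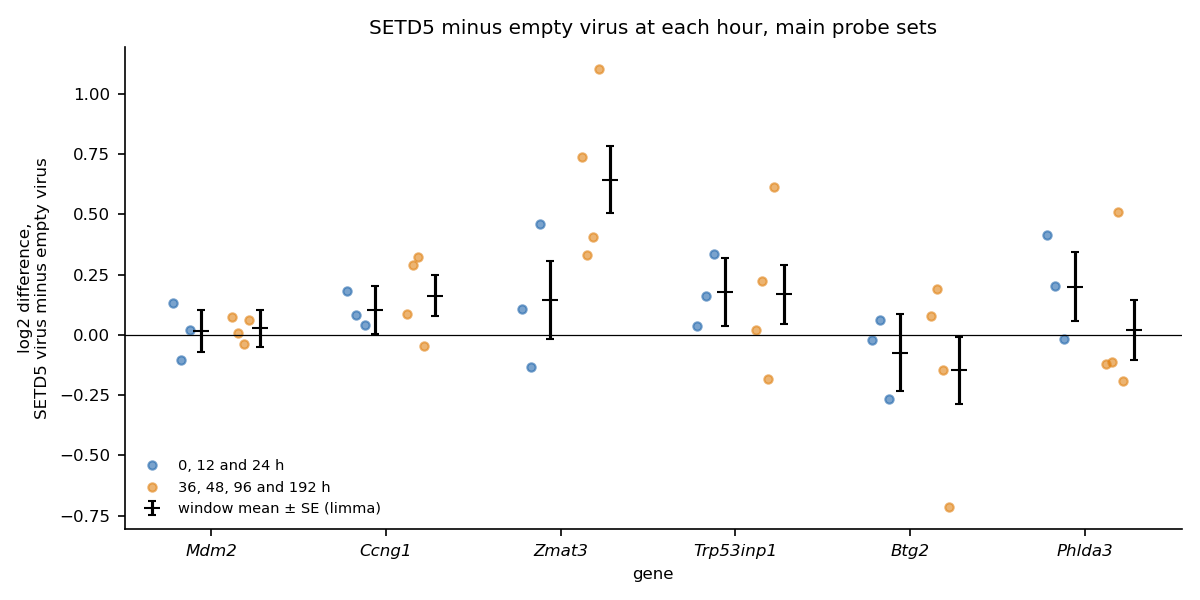
Log2 difference between the SETD5 virus and the empty virus at each hour for the 6 tested members, in blue for 0, 12 and 24 h and in orange for 36, 48, 96 and 192 h; black bars give the mean of each window ± SE from limma. The 4 late points of Zmat3 lie between 0.33 and 1.10, while the late points of Mdm2, Ccng1, Trp53inp1, Btg2 and Phlda3 lie on both sides of 0.

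The arms also differed in fat cell markers over the late hours. The summed intensity of the 5 markers Adipoq, Fabp4, Cidec, Lpl and Pparg was 4117, 5653, 9620 and 18369 at 36, 48, 96 and 192 h with the SETD5 virus, and 5187, 10982, 21381 and 28894 with the empty virus, and all 5 were lower with the SETD5 virus at each of these hours. The summed intensity of the 6 preadipocyte markers was 12530, 11555, 12465 and 16149 with the SETD5 virus and 11524, 10870, 11169 and 13317 with the empty virus. Of these 6 markers, 4, 5, 5 and 6 were higher with the SETD5 virus at 36, 48, 96 and 192 h. The actin 3′ to 5′ ratio at these 4 hours was 2.26, 1.83, 2.02 and 1.64 with the SETD5 virus and 2.51, 2.12, 2.10 and 1.72 with the empty virus. The part of the markers and of this ratio in the late differences of Zmat3 and of the pathway genes given further on was not tested, and fewer fat cells and less RNA per cell cannot be told apart in these bulk samples.

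The other probe sets of the members did not all read alike. The 3 probe sets of Mdm2 gave late differences of 0.03 (main, 1423605_a_at), -0.11 (1427718_a_at) and -0.68 (1457929_at). The last of these read 102, 140, 82.9, 125, 125, 154 and 109 with the SETD5 virus and 333, 265, 226, 177, 111, 468 and 217 with the empty virus, and it was lower with the SETD5 virus at 6 of 7 hours. Its difference over all hours was -0.92 ± 0.19, which was called (adjusted p = 0.0229 over all probe sets), while the main probe set had 0.02 ± 0.05.

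Trp53inp1 had a second, dim probe set (1416927_at), at or above 50 on 3 of 14 arrays. It read 18.7, 22.5, 20.1, 52.6, 35.5, 32.4 and 15.5 with the SETD5 virus and 26.5, 37.6, 31.0, 80.3, 49.1, 53.3 and 18.6 with the empty virus. It was lower with the SETD5 virus at all 7 hours (-0.38 ± 0.07, adjusted p = 0.0126), where the main probe set had 0.17 ± 0.09. Both probe sets of Trp53inp1 rose at 36 and 48 h. At 96 h the dim one rose (0.59, adjusted p = 0.0122) and the main one was not called (0.41, adjusted p = 0.129), and at 192 h the dim one was not called (-0.22, adjusted p = 0.251) where the main one fell (-0.87). The virus difference of Mdm2 and Trp53inp1 thus depended on the probe set, and no source used here says which parts of the transcripts the probe sets read.

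The other probe sets of Ccng1 fell at 192 h as the main one did, by 0.91 on the log2 scale (1450016_at, adjusted p = 0.00549) and by 0.64 (1450017_at, adjusted p = 0.0214). At 24 and 36 h neither was called, and at 48 and 96 h only 1450016_at was. The second probe set of Btg2 failed the filter and read 60.7 and 72.7 at 0 h with the SETD5 virus and the empty virus, and at most 44.5 at any later hour.

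**Figure D4:**
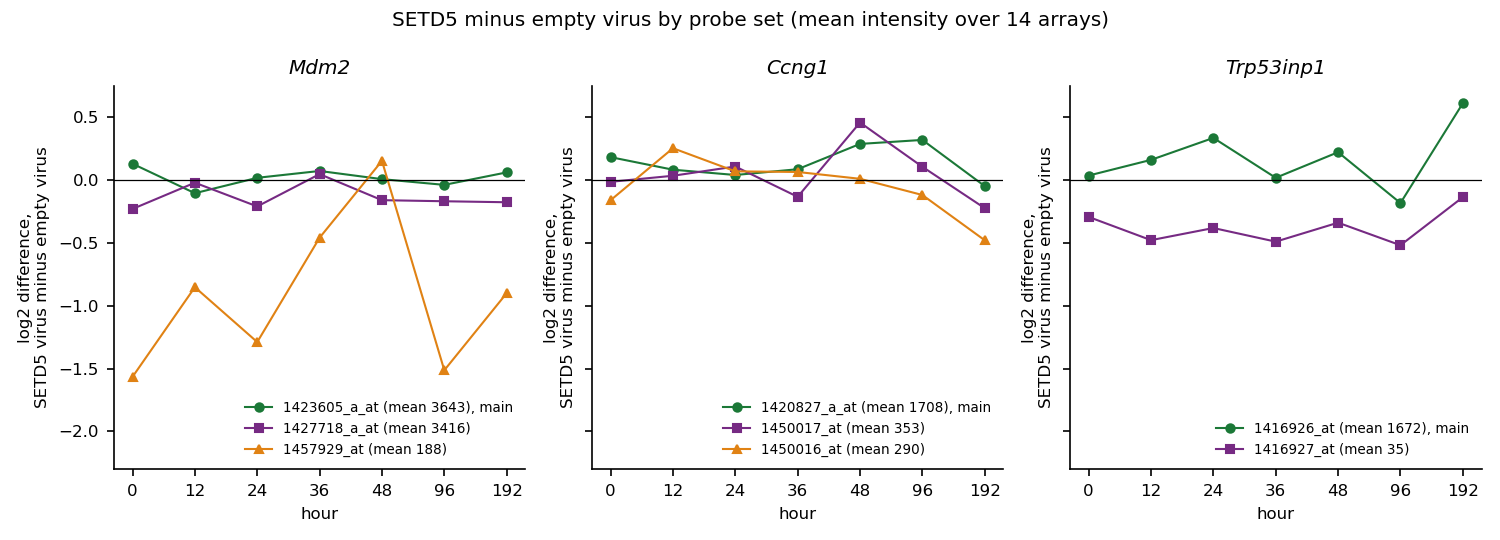
Log2 difference between the SETD5 virus and the empty virus at each hour for every tested probe set of Mdm2, Ccng1 and Trp53inp1, with the mean intensity over 14 arrays in the legend. The dim probe set of Trp53inp1 lies below 0 at all 7 hours, and probe set 1457929_at of Mdm2 lies below 0 at 6 of 7 hours, while the main probe sets stay closer to or above 0.

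Other genes of the pathway were taken from lists by role. Their calls, those of Cdkn1a included, were not checked under the alternative fits or on other probe sets, as those of the members were. The 4 lists of p53 regulators, cell cycle arrest targets, apoptosis targets, and repair and metabolism targets held 72 genes, of which 52 were tested. Against 0 h, 6 of the 52 were higher and 20 lower at 12 h, beside 19.9% and 27.9% of all tested genes. The counts were 8 and 19 at 24 h (16.4% and 21.9%), 5 and 14 at 36 h (12.4% and 17%) and 5 and 15 at 48 h (14.4% and 19.9%). At 96 h they were 4 and 9 (6.12% and 9.53%), and at 192 h 3 and 15 (7.3% and 12.3%). In the late window 9 of the 52 were higher and 3 were lower with the SETD5 virus, beside the 7.43% and 4.56% of all tested genes, and their median difference was 0.08, against 0.04 over all tested genes. In the early window none of the 52 was called, beside 0.023% of all tested genes called higher and 0% lower. There 6 of 18 repair and metabolism targets and none of the other 3 lists had an unadjusted p under 0.05. The share of all tested genes under that unadjusted p was not computed, so these 6 have no background to be set against. The median early difference of the 18 was 0.08, beside 0.03 over all tested genes.

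Among 20 tested regulators, Mdm4, the partner of MDM2 that blocks p53's activation domain, was higher late with the SETD5 virus (0.41 ± 0.11, adjusted p = 0.0415). Hipk2, a kinase that phosphorylates p53, was lower (-0.95 ± 0.23, adjusted p = 0.0281). Its intensity was 356, 423, 551 and 780 at 36, 48, 96 and 192 h with the SETD5 virus and 358, 678, 1741 and 2258 with the empty virus. Hipk2 rose against 0 h at 96 h (2.02) and 192 h (2.45), and the arms were level at 36 h. Cdkn2a, whose ARF product restrains MDM2, was not called by virus (late difference 0.20 ± 0.15, adjusted p = 0.412) and fell at 12 h (-1.09), 24 h (-0.98) and 192 h (-0.85).

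Cdkn1a, the gene of the cyclin-dependent kinase inhibitor p21 and the best known arrest target, had 789, 744, 583, 623, 561, 579 and 287 with the SETD5 virus and 663, 680, 535, 601, 647, 696 and 258 with the empty virus. The arms overlapped, with a late difference of -0.07 ± 0.09 (adjusted p = 0.644). Cdkn1a was called lower at 192 h (-1.36, adjusted p = 0.000213) and was called at no other hour. At 24 h it was lower than at 0 h in both arms, close to the threshold (-0.36 ± 0.14, adjusted p = 0.0625). Of the 6 tested arrest targets, 4 fell at 12 h, Gadd45a (-1.92), Plk2 (-1.37), Pml (-1.11) and Ier5 (-0.89), and the median of the list was -1.0, beside 27.9% of all tested genes called lower at that hour and a median of -0.06 over them.

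Plk2, a stress-induced polo-like kinase, was the only arrest target called by virus and was higher late with the SETD5 virus (0.84 ± 0.12, adjusted p = 0.00659). Its intensity at 36, 48, 96 and 192 h was 324, 414, 338 and 563 with the SETD5 virus and 217, 244, 169 and 247 with the empty virus. At 0 h it had 964 with the SETD5 virus and 1062 with the empty virus.

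Of 9 tested apoptosis targets, Apaf1, the scaffold of the apoptosome, was higher late with the SETD5 virus (0.34 ± 0.10, adjusted p = 0.0493) and Aifm2 was lower (-0.57 ± 0.16, adjusted p = 0.0440). Both calls lay close to the threshold. Fas, a death receptor gene, fell at every later hour, by 1.34 at 12 h on the log2 scale, and its late virus difference was 0.06 ± 0.10. Aen, of the same list, rose at 12 h (1.11, adjusted p = 0.0002). Pmaip1, which encodes NOXA, read at most 1.6 on any array, and Perp at most 9.9.

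Of 18 tested repair and metabolism targets, 6 were higher late with the SETD5 virus and 1 was lower, beside 7.43% and 4.56% of all tested genes. Their median difference was 0.15, against 0.04 over all tested genes. The 6 were Ak1 (0.69 ± 0.08, adenylate kinase), Sulf2 (0.63 ± 0.15, a sulfatase of heparan sulfate), Eda2r (0.45 ± 0.10, a receptor of the TNF receptor family), Ercc5 (0.41 ± 0.07, an endonuclease of nucleotide excision repair), Polk (0.40 ± 0.08, a translesion polymerase) and Abhd4 (0.34 ± 0.08), with adjusted p between 0.00355 and 0.0318. Of these, Ak1, Sulf2, Eda2r, Ercc5 and Abhd4 were also higher over all hours. The early difference of Sulf2 was as large as its late one (0.64 ± 0.17), though not called (adjusted p = 0.434). At 0 h Sulf2 read 1009 with the SETD5 virus and 599 with the empty virus. Sesn2, a stress-induced inhibitor of mTORC1 signalling that ATF4 also drives, was lower late (-0.57 ± 0.14, adjusted p = 0.0316) and over all hours (-0.79, adjusted p = 0.0176). The early difference of Sesn2 was larger in size (-1.09 ± 0.16), though not called (adjusted p = 0.149). At 0 h Sesn2 read 114.6 with the SETD5 virus and 186.7 with the empty virus, and at 24 h 12.4 and 71.3. Its readings at 36, 48, 96 and 192 h were 51.3, 48.6, 56.5 and 53.6 with the SETD5 virus, close to the intensity filter. With the empty virus they were 93.6, 75.4, 79 and 94.9. Ak1 had 443, 309, 253 and 229 at 36, 48, 96 and 192 h with the SETD5 virus and 269, 201, 159 and 117 with the empty virus, and it was higher with the SETD5 virus at 0 h too, at 496 against 369.

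**Figure D5:**
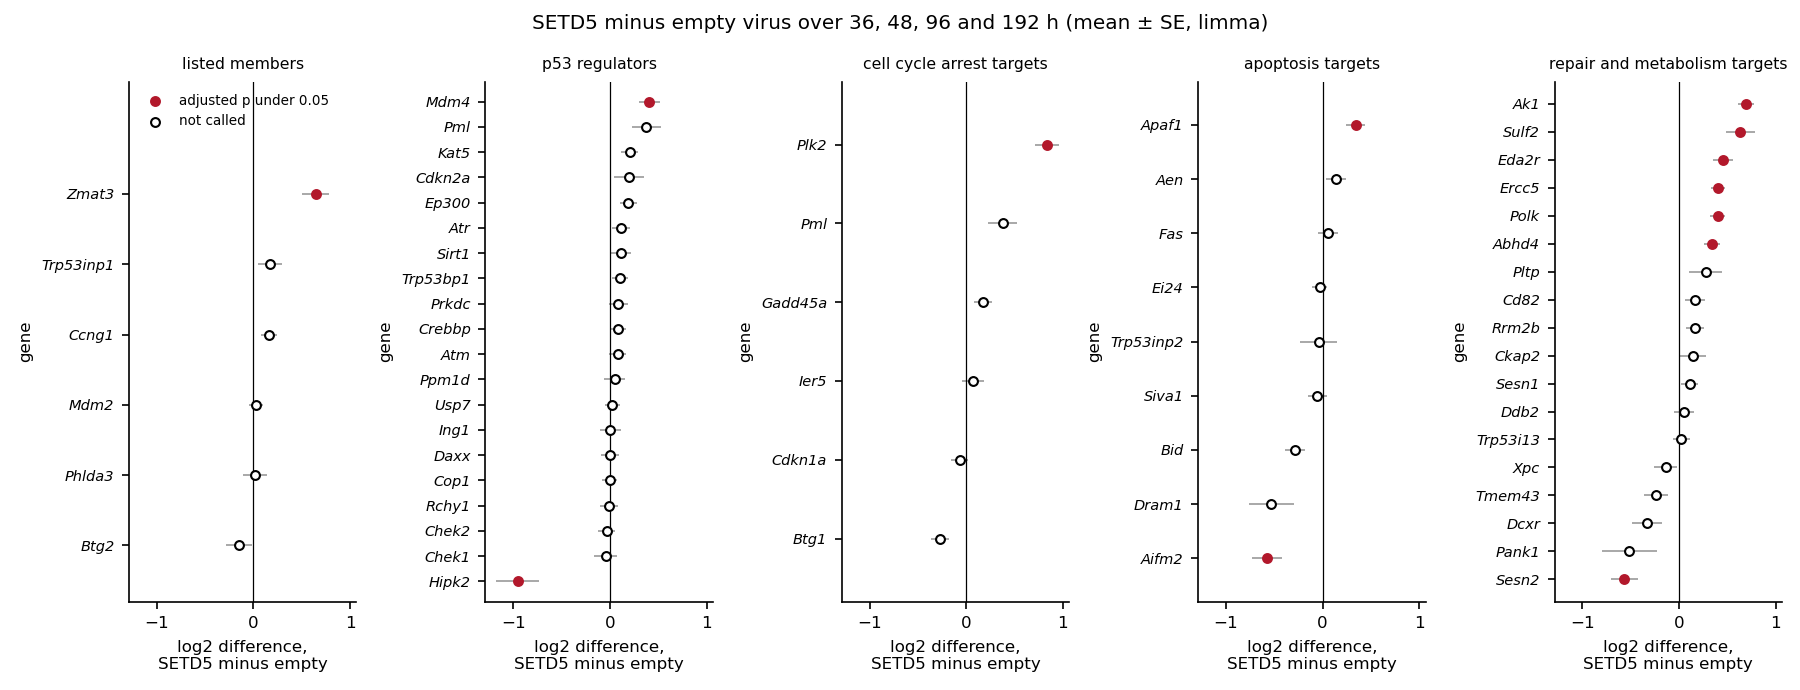
Log2 difference between the SETD5 virus and the empty virus over 36, 48, 96 and 192 h (mean ± SE, limma) for the 6 tested members and the tested genes of the 4 p53 lists; filled red points have an adjusted p under 0.05 over all 8682 genes. Zmat3, Mdm4, Plk2, Apaf1 and 6 repair and metabolism targets lie right of 0 and are filled, and Hipk2, Aifm2 and Sesn2 lie left of 0 and are filled.

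A pair of further lists gives the setting of the members. The DREAM complex represses cell cycle genes when p53 has raised p21, and of its 17 tested target genes 15 were higher at 24 h (median 1.86), beside 16.4% of all tested genes, and 16 were lower at 192 h (median -2.03), beside 12.3% of all tested genes. Top2a rose by 2.91 and Aurkb by 2.41 at 24 h on the log2 scale. None of the 17 was called by virus in the late window, where 2 had an unadjusted p under 0.05 and the median difference was -0.10. Cdkn1a was not called at 24 h (-0.36, adjusted p = 0.0625).

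ATF4 and CHOP, transcription factors of the stress response, share targets with p53, so 11 of their tested target genes were set beside the members. Ddit3, the gene of CHOP, fell at 12 h (-2.95), as did Trib3 (-2.54) and Chac1 (-2.24). At that hour 7 of the 11 were lower and 1 was higher (median -0.92), beside 27.9% and 19.9% of all tested genes. At 36 h 8 were lower and 3 were higher, beside 17% and 12.4%. In the late window Cebpg (-0.69, adjusted p = 0.0112) and Asns (-0.36, adjusted p = 0.0228) were lower with the SETD5 virus and none was higher. Of all tested genes, 4.56% were called lower and 7.43% higher in that window.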

How the data were processed

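RNA of 14 samples was hybridised to 1-colour Affymetrix Mouse Genome 430 2.0 arrays. The deposited values were linear intensities, the average difference per probe set that the authors calculated with GeneChip Analysis Suite software version 5.0; no source used here gives the scaling target, and the number of arrays limits the precision. Of 45100 probe sets, 64 controls were left out, 34944 had 1 symbol, 932 several and 9160 none in the platform annotation. Each gene was read from its probe set of highest mean.

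Genes with an intensity of at least 50 on 3 or more arrays were tested with limma 3.58.1 in R 4.3.3 on log2(intensity + 16), two-sided, with Benjamini-Hochberg adjustment over 8682 genes. A fold on this scale understates changes of dim genes. The virus effect was fitted with the hour as a block, over all hours or in early (0, 12 and 24 h) and late (36, 48, 96 and 192 h) windows, and each hour was set against 0 h with the virus as a block. Hours stand in for replicates: the labels name no separate cultures, so p-values measure only the spread between arms and hours.

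Named were all members, Cdkn1a, Mdm4, Cdkn2a, up to 4 called genes per list and comparison by absolute difference, and the 5 genes of highest r with Mdm2; Ercc5, Polk, Abhd4, Pmaip1 and Perp were added after their values were seen. The members and lists were chosen with earlier results of these data known. The fit was tested on simulated data. Alternatives were quantile normalization, a common median, offsets of 4 and 64, no filter, a filter of 100, single probe sets, no block, a trended robust prior, other windows and leaving out hours or arrays. They were read for the members only, not for Cdkn1a or the other genes of the lists. Bax, Gdf15 and Trp53 were not analysed here.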

Additional observations from a re-analysis of the deposited data

Results flagged for a closer look

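Of 21 sets of 7 values looked at (the SETD5 virus arrays, the empty virus arrays and the hourly differences of the 7 measured members), 1 held a value far from the others. Btg2 had a log2 value of 8.03 on the SETD5 virus array of 0 h, with 6.67 as the next highest of that arm. These are 7 different hours and not replicates of 1 condition, and the empty virus array of 0 h read 249 in intensity beside 246 with the SETD5 virus. The cut-off is made to mark about 1 in 20 sets of 7 independent replicate values. That rate need not hold for these 21 sets, so it gives no count to set the 1 flagged value against.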

How the results depend on the processing

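The count of called members in the late window was 1 and became 0 without the replicate block of hours, where Zmat3 kept 0.64 with an adjusted p of 0.630; leaving out each hour gave 0 to 1. Without the block on virus, Ccng1 at 96 h was also lost, so 1 member was called there. Against 0 h, a common median left 1 call at 24 h and 1 at 96 h, and no filter and single probe sets each left 1 at 96 h. Leaving out each array gave 1 to 2 calls at 12 h, 1 to 3 at 24 h, 1 to 4 at 36 h, 1 to 4 at 48 h and 1 to 4 at 96 h (4 without either 192 h array, with Zmat3 added at each of these hours and Trp53inp1 at 96 h) and 2 to 4 at 192 h (2 without the empty virus 0 h array). Uncalled differences changed sign in these fits: with a common median Mdm2 late (-0.012) and over all hours (-0.013) and Phlda3 late (-0.017); leaving out an hour gave -0.26 to 0.042 for Btg2 late, -0.14 to 0.091 for Phlda3 late and -0.014 to 0.28 for Zmat3 early. Other probe sets reversed Mdm2 late (-0.11 and -0.68), over all hours (-0.13 and -0.92), at 36 h (-0.30) and 48 h (-0.60), Ccng1 late (-0.13) and over all hours (-0.051), and Trp53inp1 late (-0.37) and over all hours (-0.38). Mdm2 passed the threshold at 36 and 48 h with a common median (0.35 at both), an offset of 64 and a trended robust prior. The share of all tested genes called was computed for the main fit only. The counts of called members in the other fits thus have no background to be set against. With 1 array per virus and hour, a single array can decide a call, and the dim members Btg2 and Bbc3 sit near the level of 50.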
